A study of Mus musculus with 2 samples.

Results

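Mitochondrial antioxidant defence was followed through 10 genes, taken by symbol from the GENCODE M21 annotation: Nnt, Txnrd2, Txn2, Prdx3, Srxn1, Sod1, Sod2, Gpx1, Gpx4 and Cat. They are 10 of 55536 annotated genes in the tables, and because Nnt has 2 gene entries they correspond to 11 entries. Total RNA was sequenced from adrenal gland of male B6CASTF1/J mice, the first-generation cross of C57BL/6J with CAST/EiJ, aged 10 days. Each of 2 libraries started with 300 ng of RNA, to which ERCC spike-ins, synthetic RNAs of known amount, were added. The labels name no treatment. The libraries form 1 group of biological replicates 1 and 2, so there is no second condition. The sample characteristics number the animals 3 and 4, yet both library descriptions name animal 3 and both samples have 1 donor identifier, so a difference between the libraries may be technical. With 2 libraries no gene can have a p-value, since the smallest two-sided exact p would be 0.5. Every difference is therefore given as a value in each library.

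Mitochondria of steroid-producing cells pass electrons to cytochromes P450, and some of these electrons leak to oxygen as superoxide. NNT, the nicotinamide nucleotide transhydrogenase of the inner mitochondrial membrane, uses the proton gradient to make NADPH. NADPH reduces thioredoxin reductase TXNRD2, which reduces thioredoxin TXN2, which in turn reduces peroxiredoxin PRDX3, the enzyme that removes hydrogen peroxide. SRXN1, sulfiredoxin, repairs peroxiredoxin that has been overoxidised. SOD2 turns superoxide into hydrogen peroxide in the matrix, and SOD1 does so in the cytosol and intermembrane space. GPX1 and GPX4 reduce peroxides with glutathione, GPX4 acting on lipid peroxides in membranes, and catalase, encoded by Cat, breaks down hydrogen peroxide mainly in peroxisomes. In humans, mutations of NNT and TXNRD2 are known causes of familial glucocorticoid deficiency. C57BL/6J lacks a run of internal coding exons of Nnt while CAST/EiJ carries them. The mm10 reference is built on C57BL/6J, so these exons are in no annotated transcript used here, and reads from them have no place in the tables.

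Expected counts on all entries totalled 36982665 in replicate 1 and 38984236 in replicate 2. Expected counts are estimated reads per gene, in which reads that match several features are divided among them. All 8 adrenal cortex markers and 5 of 7 chromaffin cell markers stood at 10 TPM or more in both libraries, where TPM is the share of all transcripts, corrected for their length. The summed level of the 8 liver markers was 3702 TPM in replicate 1 and 11537 TPM in replicate 2, and that of the 7 skeletal muscle markers was 330 and 887 TPM. The summed level of the 6 brown adipocyte markers was 3457 and 3061 TPM, and all 4 kidney markers were at 0 in both libraries. Markers of other tissues were thus abundant in both libraries. In bulk RNA, fewer cells of a type and less RNA per cell cannot be told apart.

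The annotation holds 6 transcripts of Nnt, of which Nnt-201, Nnt-202 and Nnt-206 are separated by little sequence. Nnt (ENSMUSG00000025453.18) lies at chr13:119335448-119408997 on the minus strand of mm10. Its longest coding transcript, Nnt-202, has 17 exons, of which exons 8 and 9 are missing from Nnt-201. Those exons hold 342 coding bases, or 114 codons with a remainder of 0 bases, so skipping them leaves the reading frame intact. The junctions and the skipped exons are shown because only reads over them separate Nnt-201 from Nnt-202. In each junction the capitals mark the exon downstream of the splice site.
Nnt-201, exon 7 to exon 10: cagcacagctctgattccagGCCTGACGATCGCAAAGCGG
Nnt-202, exon 7 to exon 8: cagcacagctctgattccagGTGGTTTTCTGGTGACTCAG
Nnt-202, exon 9 to exon 10: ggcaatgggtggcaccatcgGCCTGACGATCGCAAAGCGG
The exons that Nnt-201 skips follow, exon 8 at chr13:119374629-119374774 and exon 9 at chr13:119372396-119372591, both read on the minus strand from the GENCODE M21 transcript.
Nnt exon 8: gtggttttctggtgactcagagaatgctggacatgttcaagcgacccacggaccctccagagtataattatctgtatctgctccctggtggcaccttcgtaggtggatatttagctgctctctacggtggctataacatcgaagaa
Nnt exon 9: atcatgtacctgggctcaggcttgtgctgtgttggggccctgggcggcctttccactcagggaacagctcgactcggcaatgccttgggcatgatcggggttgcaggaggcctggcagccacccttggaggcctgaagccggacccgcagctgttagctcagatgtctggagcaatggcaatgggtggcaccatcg

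Among the members, 3 are selenoproteins, in which a TGA codon is read as selenocysteine instead of as a stop. The codon encodes a catalytic residue of each enzyme and is shown in capitals with the coding bases around it.
Txnrd2-203: cctactgtgactggttgcTGAggctaa
Gpx1-201: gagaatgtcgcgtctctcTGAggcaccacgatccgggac
Gpx4-202: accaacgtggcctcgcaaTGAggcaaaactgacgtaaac
In Txnrd2-203 it is codon 526 of 528, counting the stop, and only a glycine codon stands between it and the end of the protein. In Gpx1-201 it is codon 47 of 202 and in Gpx4-202 codon 73 of 198, so both peroxidases carry it well inside the coding sequence.

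All 10 genes were expressed well above the typical gene. Every member reached 10 TPM in both libraries, where 26.3% of the 22015 nuclear protein-coding genes and 11.2% of all annotated genes did. The mean level of the members ran from 19.8 TPM for Txnrd2 to 386 TPM for Gpx4, with a median of 148 TPM, and the median over nuclear protein-coding genes was 2.41 TPM. In falling order of mean TPM the genes were Gpx4, Sod1, Sod2, Gpx1, Cat, Prdx3, Txn2, Srxn1, Nnt and Txnrd2. The ranges of Gpx1, Cat and Prdx3 overlapped one another, that of Cat also overlapped that of Txn2, and those of Nnt and Txnrd2 overlapped, so the order within these genes is not set by the libraries. Cat had rank 7 in replicate 1, below Txn2, and rank 4 in replicate 2. The ranges of Gpx4 and Sod1 did not overlap, but in replicate 2 they differed by only 0.01 on the log2 scale.

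**Figure D1:**
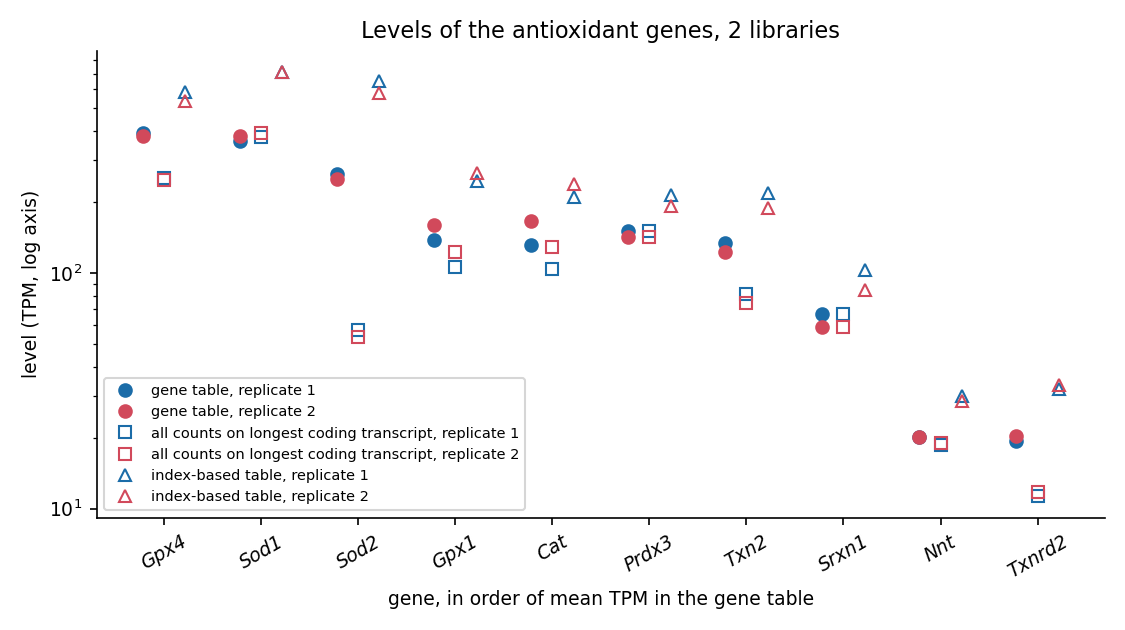
Level in TPM (log axis) of each member in replicate 1 (blue) and replicate 2 (red), from the deposited gene table (filled circles), from the same counts placed on the transcript with the longest coding sequence (squares), and from the index-based transcript table (triangles). Where coding sequences tied in length, the squares use the longer transcript. Nnt and Txnrd2 are lowest in all 3 readings. Sod2 moves most, from 256 TPM in the gene table to 55.3 TPM when its counts are placed on the coding transcript.

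NADPH supply was represented by Nnt, which with Txnrd2 stood lowest among the members and had nearly the same level in both libraries. Nnt had 20.2 TPM in replicate 1 and 20.1 TPM in replicate 2, from 2294 and 2371 expected counts. Its mean was 20.2 ± 0.035 TPM (SD, n = 2), above 85.1% of nuclear protein-coding genes. Scaled counts were 1.03-fold higher in replicate 2, with an exact binomial (Clopper-Pearson) 95% interval of 0.976 to 1.096 that covers counting error only. The libraries therefore did not differ in Nnt beyond counting noise. The SD of the TPM is smaller than the counting error, so it understates the uncertainty of the level. The 3 protein-coding genes whose levels lay nearest in log2 TPM over the 2 libraries, among 22015 compared, were Sae1 at 20.2 and 20.2 TPM, Sppl2a at 20.1 and 20.1 TPM, and Galnt2 at 20.3 and 19.96 TPM. With only 2 libraries this likeness is of level alone.

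How much of Nnt was the skipped form depended on which deposited transcript table was read. The first table comes from alignments to the transcriptome, and the second was made from the reads and an index without such alignments. In the alignment-based table Nnt-201, which lacks exons 8 and 9, held 53.9% of Nnt TPM in replicate 1 and 41.8% in replicate 2, or 47.8% ± 8.56 on average (SD, n = 2). In the index-based table it held 15.1% and 4.71%. The forms that include both exons (Nnt-202, Nnt-203 and Nnt-206) together held 41.8% and 55.1% by alignment and 80.9% and 92.0% by index. In both tables the skipped form was lower in replicate 2 than in replicate 1, and in both libraries it was lower by index than by alignment. The deposited bounds of TPM for Nnt-201 overlapped, at 9.40 to 12.2 in replicate 1 and 6.75 to 10.0 in replicate 2. The 2 tables were made from the same libraries, so their shared direction is not independent. Both tables placed similar totals on Nnt, 2294 and 2371 counts by alignment and 2438 and 2598 by index, so the tables differ mainly in how the reads were divided among the transcripts.

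The annotated sequences show which of these divisions could rest on distinct reads. Nnt-206, the only transcript of the other Nnt entry (ENSMUSG00000116207.1, chr13:119335528-119408952), lies wholly within Nnt-202: it begins at base 46 of that transcript, lacks its last 80 bases and has the same 2505 coding bases. No stretch of 31 bases is found only in Nnt-202 or only in Nnt-206 among Nnt transcripts. Nnt-206 held 5.70% and 0% of Nnt TPM by alignment against 69.9% and 55.3% by index, and Nnt-202 held 33.6% and 53.5% against 8.50% and 35.1%. The entry of Nnt-206 stood at 1.15 and 0 TPM in the gene table, beside 19.0 and 20.1 TPM for the main entry. The deposited posterior SD of the counts of each entry was 218 in replicate 1 and 151 in replicate 2. Levels of Nnt are therefore given as the sum of both entries, and the difference between entries is not read as a difference between libraries.

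The skipped form has distinct sequence, but little of it. Of the 3092 stretches of 31 bases in Nnt-201, 28 were found in no other Nnt transcript, and these span the junction from exon 7 to exon 10 printed above. The forms that end early were low in both tables. The coding form Nnt-203 held 2.48% and 1.59% by alignment and 2.52% and 1.48% by index. The retained-intron forms Nnt-205 (3.02% and 2.43% by alignment) and Nnt-204 (1.29% and 0.70%) together held 4.31% and 3.13% by alignment and 3.92% and 3.33% by index. These 3 forms carry 925 to 1493 stretches of their own, and for them the tables lay within 1 percentage point of each other in every library. Allele-specific counts were not analysed here, and the part of reads from the exons that C57BL/6J lacks in these shares was not tested.

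**Figure D2:**
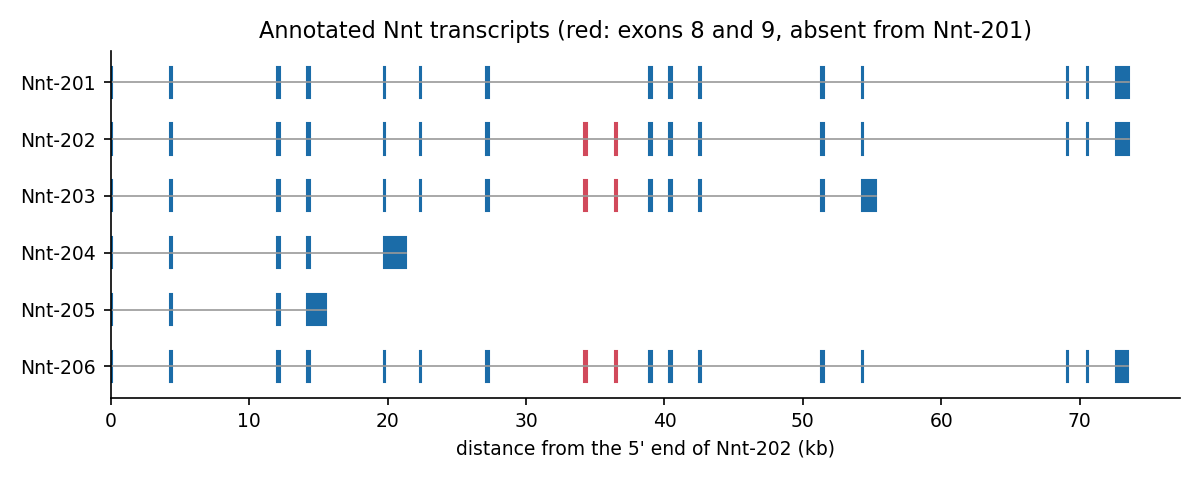
Exons (boxes) and introns (lines) of the 6 annotated Nnt transcripts, by distance in kb from the 5′ end of Nnt-202, with exons 8 and 9 in red. Nnt-201 differs from Nnt-202 by the absence of these exons, and Nnt-206 has the same exons as Nnt-202 with trimmed ends.

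**Figure D3:**
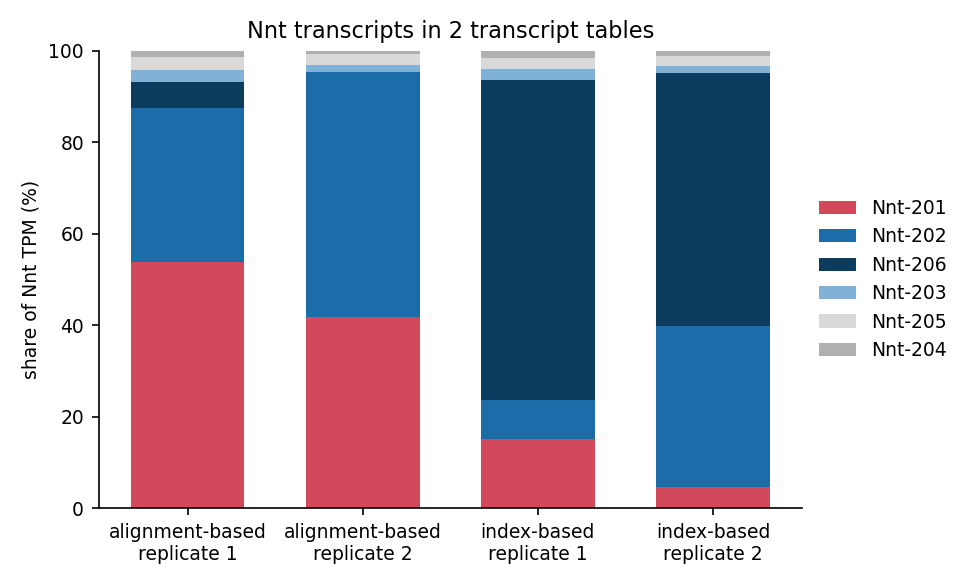
Share of Nnt TPM (%) held by each transcript, 1 bar per library and transcript table. The red segment, Nnt-201, takes 53.9% and 41.8% in the alignment-based table and 15.1% and 4.71% in the index-based table.

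Nnt stood well below Idh2 and Glud1, the most abundant alternative sources of mitochondrial NADPH. Idh2, the NADP-dependent isocitrate dehydrogenase of the matrix, had 116 and 128 TPM and exceeded Nnt by 2.60 ± 0.10 log2 units (SD, n = 2), which is 6.05-fold. Glud1, glutamate dehydrogenase, had 90.7 TPM in replicate 1 and 138 TPM in replicate 2 and was 1.59-fold higher in replicate 2 (1.55 to 1.64). Idh2 was the higher of the pair in replicate 1 and Glud1 in replicate 2, and their ranges overlapped. Aldh1l2, a mitochondrial folate enzyme, stood at 0.41 and 0.82 TPM and was 1.70-fold higher (1.29 to 2.26). Of the 8 other mitochondrial sources, 5 were higher and 3 lower in replicate 2, and 2 were more than 1.5-fold higher, as were 7.62% of the 13188 genes averaging 100 counts or more. Of the 5 cytosolic sources 3 were higher and 2 lower (2 higher and 3 lower by library total or spike-ins), none more than 1.5-fold, led by malic enzyme Me1 (107 and 97.4 TPM) and Idh1 (84.5 and 90.2 TPM). Against citrate synthase, Cs, a general mitochondrial enzyme, Nnt was lower by 4.16 ± 0.06 log2 units (SD, n = 2).

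The 5 genes that use reducing power for steroid synthesis in the same organelle all stood above Nnt in both libraries, by widely different amounts. Cyp11a1, the side-chain cleavage enzyme, had 706 and 622 TPM and exceeded Nnt by 5.04 ± 0.13 log2 units (SD, n = 2), which is 32.9-fold. Fdx1, the ferredoxin that carries the electrons, had 651 and 556 TPM. Fdxr, the reductase that draws them from NADPH, exceeded Nnt by 2.77 ± 0.16 (SD, n = 2). All 5 genes of this chain were lower in replicate 2, and 1 of them, the aldosterone synthase Cyp11b2, was more than 1.5-fold lower, at 72.4 and 38.7 TPM with a ratio of 0.543 (0.515 to 0.572). It was also the nearest of the 5 to Nnt. Lower by more than 1.5-fold were 0.849% of the 13188 genes. The interval of the Nnt ratio included 1, so Nnt showed no direction of its own.

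**Figure D4:**
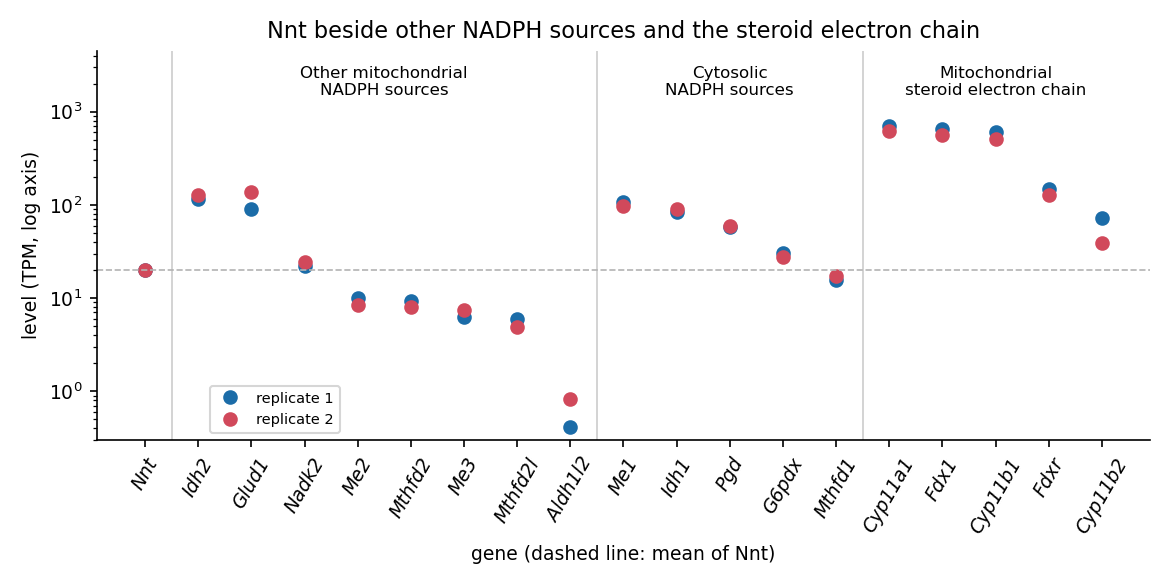
Level in TPM (log axis) of Nnt, of the other mitochondrial and the cytosolic NADPH sources and of the mitochondrial steroid electron chain, in replicate 1 (blue) and replicate 2 (red), with the mean of Nnt as a dashed line. Idh2 and Glud1 lie above Nnt in both libraries, 5 of the 8 mitochondrial sources lie below it, and all 5 genes of the steroid chain lie above it.

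In the thioredoxin chain each step from reductase to peroxidase stood at a higher level in the gene table. Txnrd2 (chr16:18426384-18479073) had 19.3 and 20.4 TPM, from 1146 and 1215 counts (mean 19.8 ± 0.80 TPM, SD, n = 2). Txn2 (chr15:77915047-77929006) had 133 and 122 TPM and exceeded its reductase by 2.69 ± 0.15 log2 units (SD, n = 2). Prdx3 (chr19:60864051-60874556), the peroxidase at the end of the chain, had 151 and 142 TPM and exceeded Txn2 by 0.20 ± 0.03 (SD, n = 2). In the gene table the step from Txnrd2 to Txn2 was thus large in both libraries and that from Txn2 to Prdx3 small. With all counts on the transcript of longest coding sequence, Txn2 stood at 81.1 and 74.5 TPM. Prdx3 still stood at 151 and 142 TPM, so that the last step was larger. This rests on a tie, which went to the longer transcript. Txn2-204, of 2049 bases, was used for Txn2, although Txn2-201, of 1298 bases, has the same 498 coding bases. By index the last step had no constant sign, with differences of -0.03 and 0.04. Srxn1 (chr2:152105516-152111376), the repair enzyme, had 66.8 and 58.9 TPM and lay below Prdx3 by 1.23 ± 0.07 log2 units (SD, n = 2).

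Nnt and Txnrd2 stood at the same level within their spread. Nnt minus Txnrd2 was 0.07 in replicate 1 and -0.02 in replicate 2 on the log2 scale, or 0.02 ± 0.06 on average (SD, n = 2), and its sign differed between the libraries. By index the difference was -0.09 and -0.22. With all counts on the transcript of longest coding sequence Nnt lay 0.70 log2 units higher. The counts of Txnrd2 were then placed on Txnrd2-215, of 2874 bases, which held 1.35% and 1.27% of its TPM. Txnrd2-215 was chosen by total length alone, since Txnrd2-203, of 1905 bases, has the same 1581 coding bases. Prdx3 exceeded Nnt by 2.86 ± 0.06 (SD, n = 2) in the gene table, a ratio of 7.28. Txnrd2 has 16 annotated transcripts, of which 7 were at 0 in both libraries, and Txnrd2-203 led with 69.0% and 74.5% of TPM by alignment and 71.6% and 67.9% by index. It carries the selenocysteine codon printed above. Prdx3 has 1 transcript and shares no stretch of 31 bases with another gene, so its reads did not have to be divided among annotated features. Its mean level was 203 ± 15.1 TPM (SD, n = 2) by index. For Prdx3, TPM by index was 1.41 times that of the gene table in replicate 1 and 1.35 times in replicate 2. The median of this ratio over 12489 nuclear protein-coding genes was 1.602 and 1.504, so Prdx3 lay below the general offset between the tables. The counts of Prdx3 were lower by index, at 6775 and 6672 against 7635 and 7286. Srxn1-201 held 99.8% and 99.6% of Srxn1, and Txn2-201 held 93.2% and 93.3% of Txn2 by alignment and 84.3% and 83.7% by index.

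Cytosolic and mitochondrial counterparts differed in opposite directions for the reductase and for the thioredoxin. Within the cytosolic pair the reductase Txnrd1 (30.47 and 29.35 TPM) lay below the thioredoxin Txn1 (80.9 and 82.1 TPM), as Txnrd2 lay below Txn2. Txnrd1, the cytosolic reductase, exceeded Txnrd2 by 0.59 ± 0.10 log2 units (SD, n = 2), whereas Txn1, the cytosolic thioredoxin, lay below Txn2 by 0.65 ± 0.10 (SD, n = 2). Prdx5, the other peroxiredoxin found in mitochondria, stood at 134 and 150 TPM and overlapped Prdx3 in range. Of the 12 other peroxiredoxin and thioredoxin genes, 6 were higher and 6 lower in replicate 2, and 4 were higher and 8 lower by library total or spike-ins. The most abundant were Txnip, the thioredoxin-binding protein, at 235 and 200 TPM and Prdx1 at 196 and 229 TPM. Prdx4, the peroxiredoxin of the endoplasmic reticulum, was the only one more than 1.5-fold apart, at 23.4 and 34.7 TPM with a ratio of 1.51 (1.37 to 1.65), beside 8.47% of all genes tested. By library total it was 1.43-fold and by spike-ins 1.45-fold higher, both under the threshold.

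Both intracellular superoxide dismutases were among the 3 most abundant members of the gene table. Sod1 (chr16:90220754-90226329) had 363 TPM in replicate 1 and 379 TPM in replicate 2 (mean 371 ± 11.3, SD, n = 2). Sod2 (chr17:13006846-13040063), the matrix enzyme, had 263 and 249 TPM (mean 256 ± 9.53 TPM, SD, n = 2). Sod1 exceeded Sod2 by 0.47 and 0.61 on the log2 scale, and by 0.12 and 0.30 by index, so the direction was the same in both libraries and both tables and the size was not. Extracellular Sod3 stood at 23.7 and 22.7 TPM and Ccs, the copper chaperone of SOD1, at 35.1 and 37.8 TPM, 1 lower and 1 higher in replicate 2 and neither more than 1.5-fold apart.

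The level of Sod2 in TPM rested largely on transcripts that are not annotated as coding. Sod2-207, annotated as a processed transcript of 1138 bases, held 60.8% of Sod2 TPM in each library, and the retained-intron form Sod2-204 of 644 bases held 30.6% and 30.9%. The full coding transcript Sod2-201, of 5861 bases, held 7.77% and 7.38% of TPM but 35.6% and 34.5% of the counts, because a long transcript gives more reads per molecule. Sod2-207 covers 643 of the 666 coding bases of Sod2-201 and shares 93.2% of its stretches of 31 bases with it. With every count of the gene placed on the transcript with the longest coding sequence, a reading added after the values were seen, Sod2 stood at 57.3 and 53.3 TPM and moved from rank 3 to rank 8 of 10. The index-based table gave 654 and 578 TPM, where coding transcripts held 26.3% and 25.6%. The index-based table also gave Sod2-205, a coding fragment with 150 coding bases, 21.2% and 20.8%, where the alignment-based table gave 0% and 0.05%. Of the stretches of Sod2, 26.6% occur in other genes, most of them in AC166110.4 and in Rps6ka2, which stood at 4.18 and 4.28 TPM. The log2 replicate ratio of Sod2 was -0.08 from the gene table and -0.07 from index-based counts, so the tables agreed on it more closely than on the level.

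Sod1 rested on 1 transcript. Sod1-201 held 99.4% and 99.5% of TPM by alignment and 99.2% in each library by index. With all counts on that transcript the level was 378 and 391 TPM, and Sod1 became the most abundant member. Of its stretches 5.42% occur in another gene, nearly all in Gm8566 at 2.17 and 2.53 TPM, and the gene overlaps by 650 bases with Scaf4 on the opposite strand, at 13 and 12.4 TPM. Whether counting used strand is not stated in the labels or notes, so reads in this overlap are uncertain.

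Gpx4 was the most abundant member in the gene table and Gpx1 stood about 2.60-fold lower. Gpx4 (chr10:80047166-80056439) had 391 and 381 TPM (mean 386 ± 7.33 TPM, SD, n = 2) and rank 94 among nuclear protein-coding genes. Gpx1 (chr9:108338903-108340343) had 138 TPM in replicate 1 and 159 TPM in replicate 2 (mean 149 ± 15.1, SD, n = 2). Gpx4 exceeded Gpx1 by 1.38 ± 0.17 log2 units (SD, n = 2). By index the difference was 1.25 and 1.02, and Gpx4 had rank 3 among the members, below Sod1 and Sod2. With all counts on the transcript of longest coding sequence Gpx4 had rank 2. Cat (chr2:103453849-103485160) had 132 and 165 TPM (mean 149 ± 23.7 TPM, SD, n = 2). In the gene table it did not differ from Gpx1 beyond its spread, at -0.07 and 0.05 on the log2 scale for Cat minus Gpx1. By index Cat lay below Gpx1 in both libraries, at -0.21 and -0.16.

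Coding forms of Gpx4 differ at their first codons, which decide where the enzyme goes. The first 60 coding bases of Gpx4-201 and Gpx4-202 are shown with the start codon in capitals. Gpx4-202 begins with the sequence for the mitochondrial leader, and the cytosolic enzyme starts further downstream in the same message, so that these products cannot be told apart here. Gpx4-201 starts in another first exon and encodes the nuclear form known from sperm.
Gpx4-201: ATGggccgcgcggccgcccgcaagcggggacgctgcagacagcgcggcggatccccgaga
Gpx4-202: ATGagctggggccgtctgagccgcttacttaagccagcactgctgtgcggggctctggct
Gpx4-202 led in both tables but with different shares, 39.5% and 40.8% of Gpx4 TPM by alignment and 84.8% and 92.2% by index. By alignment, the retained-intron form Gpx4-203, of 280 bases, held 33.3% and 32.6% and the coding form Gpx4-207 held 25.1% and 24.7%. By index, Gpx4-203 was listed at 0 in both libraries and Gpx4-207 at 0% and 0.74%. Gpx4-201 held 1.97% and 1.73% by alignment and 15.1% and 6.97% by index, below Gpx4-202 in each. Of the stretches of Gpx4, 38.7% also occur in the pseudogene Gpx4-ps2, which was listed at 58.3 and 54.9 TPM, so the division of reads between gene and pseudogene is uncertain. Expected counts of Gpx4 were 8272 and 8235, and the index-based counts were 1.23 and 1.24 times as many.

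Gpx1 and Cat share no stretch of 31 bases with another gene, yet each has a pair of main transcripts. Gpx1-204 held 51.7% of Gpx1 TPM in each library and Gpx1-201 43.9% and 44.8% by alignment, whereas by index Gpx1-201 led with 64.0% and 65.9%. Gpx1-204 shares 96.6% of its stretches with Gpx1-201. Cat-201 held 70.6% and 69.9% of Cat TPM, and the short form Cat-202, with 528 coding bases against 1581, held 29.4% and 30.1%. Cat-202 took 10.1% and 10.4% of the counts. In all, 8 of the 10 members had the same leading transcript in both tables, the exceptions being Nnt and Gpx1.

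Among the members, Cat and Gpx1 lay farthest toward replicate 2. None of the 10 was more than 1.5-fold apart, a count near the background, since 8.47% of the 13188 genes averaging 100 counts or more were. At 1.2-fold, 1 of 10 was apart, Cat, where 23.7% of genes were. Cat had 9539 and 12057 counts and was 1.27-fold higher in replicate 2 (1.23 to 1.30), and 17.0% of genes had a larger absolute ratio. Gpx1 had 3762 and 4420 counts and was 1.18-fold higher (1.13 to 1.23), and 27.2% of genes had a larger one. Both intervals leave out 1, but they hold no spread between animals.

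Srxn1 lay farthest in the other direction, at 6626 and 5914 counts with a ratio of 0.893 (0.862 to 0.925). Txn2 had a ratio of 0.933, Sod2 of 0.945, Prdx3 of 0.955 and Gpx4 of 0.996. Nnt, Sod1 and Txnrd2 had ratios of 1.03, 1.05 and 1.06. Thus 5 of 10 members had a log2 ratio above 0, as did 49% of all genes tested. The median log2 ratio of the members was 0.02, against -0.01 over all genes tested, and their median absolute log2 ratio was 0.08, against 0.13. The signs of the members near 1 depended on scaling: 3 of 10 lay above 0 when scaled by library total and 4 of 10 when scaled by spike-ins, while Cat and Gpx1 stayed above 0 and Srxn1, Txn2, Sod2 and Prdx3 below 0 in all 6 scalings or tables.

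Of the liver markers 7 of 8, and all muscle and granulocyte markers with enough counts, lay farther apart between the libraries than any member. In replicate 2 all 8 liver markers were higher, 7 by more than 1.5-fold, and Alb, the plasma albumin, was 3.06-fold higher. The exception was Tat, tyrosine aminotransferase, with a ratio of 1.07 (0.964 to 1.18). All 7 skeletal muscle markers and all 4 granulocyte markers with enough counts were also more than 1.5-fold higher, with list medians of 2.61 and 3.15, while 6 of the 7 muscle markers were so by library total or spike-ins. The 8 cortex markers were all lower in replicate 2, with a median ratio of 0.923, and so were the 7 chromaffin markers, with 0.850. The 6 brown adipocyte markers were 3 higher and 3 lower, with 1.01, but 1 higher and 5 lower by library total and 2 higher and 4 lower by spike-ins, with 1 more than 1.5-fold lower in each. Of the 7 erythroid markers the 6 with enough counts were all higher, with 1.09, and 5 of 6 were by library total or spike-ins. Catalase and GPX1 are known to be abundant in liver. The part of liver, muscle or blood RNA in the ratios of Cat, Gpx1 and the other members was not tested.

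**Figure D5:**
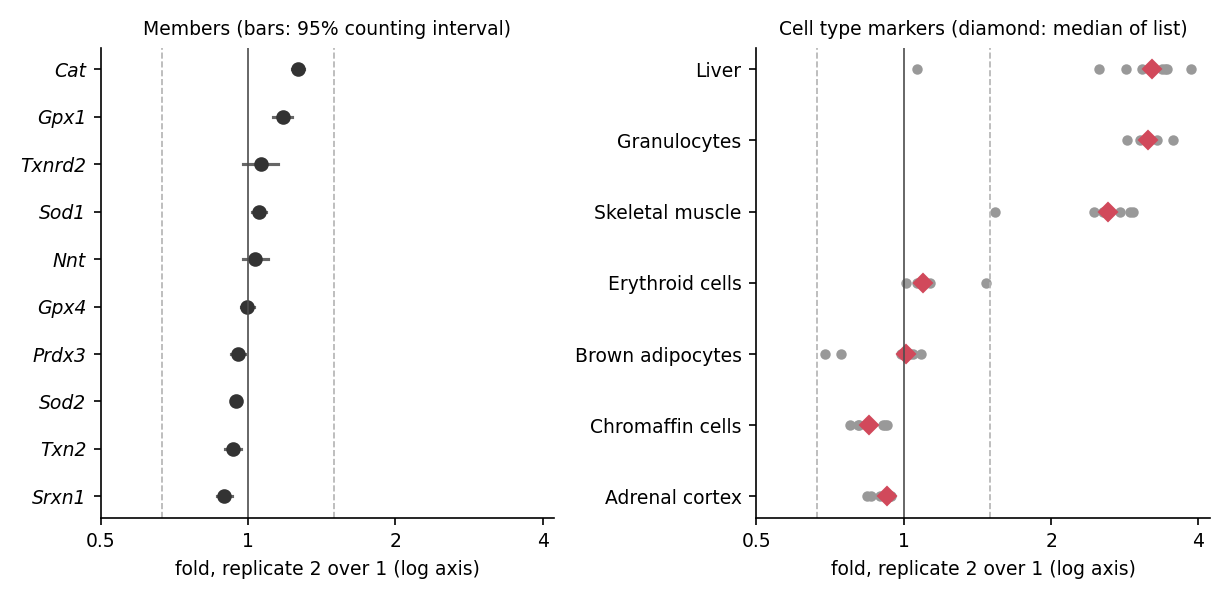
Fold of scaled counts, replicate 2 over replicate 1 (log axis), for the 10 members with 95% counting intervals (left) and for the cell type markers averaging 100 counts or more (right; grey points are genes, diamonds list medians). Dashed lines mark 1.5-fold, which no member passes and 7 of the 8 liver markers do.

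Scaling by library total or by spike-ins shifted every log2 ratio by -0.08 or -0.06. Of 64 pathway genes averaging 100 counts or more, 6 were more than 1.5-fold apart, beside 8.47% of all genes tested. Of these 6, Prdx4 fell under the threshold by library total or spike-ins, and Hmox1, at 1.48-fold, by library total. Of the 12 genes of glutathione synthesis and use, 8 were higher and 4 lower in replicate 2 and none passed 1.5-fold. By library total or spike-ins 7 were higher and 5 lower. The highest were Slc25a39, which imports glutathione into mitochondria, at 128 and 125 TPM and Glrx5, a mitochondrial glutaredoxin, at 56.1 and 52.3 TPM. Of the 6 NRF2 control genes and targets, Nqo1, a quinone reductase, averaged too few counts for the comparison, at 100 and 74 counts, and of the other 5 genes 4 were higher and 1 lower. Nfe2l2, which encodes NRF2, stood at 28.1 and 31.2 TPM, its partner Mafg at 13.6 and 13.7 TPM, and Hmox1, heme oxygenase, was 1.56-fold higher in replicate 2 (1.38 to 1.77) at 7.58 and 11.8 TPM.

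The genes that supply selenium to Txnrd2, Gpx1 and Gpx4 included the largest difference of the pathway lists. Selenop, the selenium transport protein made mainly by liver, had 198 TPM and 443 TPM and was 2.28-fold higher (2.24 to 2.33). Sephs2, which makes the selenium donor, stood at 73.8 and 89.2 TPM. Of the 7 genes of this list 5 were higher and 2 lower, but 3 higher and 4 lower by library total, and only Selenop passed 1.5-fold, beside 8.47% of all genes tested. The 3 selenoprotein members had ratios of 1.06 for Txnrd2, 1.18 for Gpx1 and 0.996 for Gpx4, each below the ratio of Selenop. Of the 8 mitochondrial reference genes, led by Atp5b at 1630 and 1659 TPM and Cox4i1 at 910 and 912 TPM, 4 were higher and 4 lower, with 0 higher and 8 lower by library total and 2 higher and 6 lower by spike-ins.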

How the data were processed

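Per the notes deposited with the files, the gene table and first transcript table come from alignments to the transcriptome (mm10, GENCODE M21). They hold expected counts, not normalised, and TPM over all entries, as the authors deposited them. The deposited tables also give each transcript's percent of its gene, not used here, and as score values a posterior mean and SD of each count and bounds of TPM, as the authors made them. The second deposited table, made from reads and an index, holds estimated counts and TPM. The sources used here name no tool or version for these steps. The members and lists were chosen with earlier results of these data known.

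Levels are TPM summed over the gene entries of a symbol. Ratios divide expected counts of replicate 2 by those of replicate 1 after TMM scaling (edgeR 4.0.16). Log2 ratios add 0.5 counts to each library and folds add none. Fold intervals (Clopper-Pearson, 95%) hold counting error alone, as no molecular identifiers were read. A gene is called when more than 1.5-fold apart, among those averaging at least 100 counts. The ratio step was tested on simulated data.

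All members and every Nnt transcript are named, with the leading transcript of other members and those of at least 10% share in both libraries of the alignment-based table. From each list the 2 genes of highest mean TPM and those past 1.5-fold are named. The genes nearest to Nnt minimise the Euclidean distance in log2 TPM. Gpx4-201, Sod2-201, Sod2-205, Cs, Fdxr, Prdx5, Txn1, Txnrd1, Alb, Tat, Nqo1, Scaf4 and the genes that share sequence with members were added after values were seen. Transcript sequences are those of GENCODE M21, split into stretches of 31 bases to find shared sequence. Alternatives were DESeq2 (1.42.0) size factors, total and spike-in scaling, the index-based table, other thresholds, and each library alone. R 4.3.3 and Python 3.11.15 were used.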

Additional observations from a re-analysis of the deposited data

How the results depend on the processing

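All 10 members stayed at 10 TPM or more under every level alternative tried, and 8 of 10 at 30 TPM, where Nnt and Txnrd2 fall below. The count more than 1.5-fold apart stayed 0 under every scaling, and was 1 at 1.2-fold. The median log2 ratio of the members was -0.056 scaled by library total and -0.034 by spike-ins. The Nnt level was 19.9 TPM as a posterior mean, 29.4 in the index-based table, 60.5 rescaled over nuclear protein-coding genes, 18.8 with all counts on the longest coding transcript and 19.6 for its main entry alone, the last 2 chosen after seeing the data. Leaving out 1 replicate gave 20.1 to 20.2 TPM. For Nnt, TPM by index was 1.49 times that of the gene table in replicate 1 and 1.43 times in replicate 2. Both values lay below the medians of 1.602 and 1.504 over 12489 nuclear protein-coding genes. Nnt minus Txnrd2 was -0.088, -0.15 and 0.70 on the log2 scale with posterior means, the index-based table and the longest coding transcript, and -0.02 to 0.07 leaving out 1 replicate. The share of Nnt-201 was 9.92% in the index-based table and 41.8% to 53.9% leaving out 1 replicate. The cause of these changes was not tested. Of other values, 26 of 54 levels, 16 of 50 ratios and 15 of 18 transcript shares moved by more than their spread. Leaving out 1 of 2 libraries cannot move a level by more than its SD, and the rescaling over nuclear protein-coding genes moved every level. The count of levels is therefore partly fixed in advance. For ratios the spread is that of the counting interval, not of the replicates. Scaling by library total or by spike-ins shifts every log2 ratio by the same amount, so the count of ratios is also partly fixed. No paired analysis was possible because the libraries form 1 group. With 2 libraries the spread between animals is not measured.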
